A study of Mus musculus with 25 samples.

Results

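The genes described here encode the channels, sensors and pumps of the intracellular calcium store, and their rows and peaks were found by gene symbol. They are the IP3 receptors Itpr1, Itpr2 and Itpr3, the ryanodine receptors Ryr1, Ryr2 and Ryr3, the store sensors Stim1 and Stim2, and the SERCA pumps Atp2a2 and Atp2a3. All 10 were found among the 24439 genes of the RNA-seq tables, and 62 of the 65053 ATAC-seq consensus peaks were annotated to them as the nearest gene. Expression and chromatin accessibility were compared between αTC1 (alpha TC1 clone 6), a mouse line that makes glucagon, and βTC6 (beta-TC-6), a mouse line that makes insulin. RNA-seq covered 3 libraries per line, and ATAC-seq, which reads DNA that a transposase can reach, covered 5 libraries per line and 9 mixtures of counted cells, each sequenced once. No cells were treated, each line is a single cultured line, and the lines were grown in different media, so line and medium cannot be told apart. Nothing in the sources used here says that replicates came from separate cultures, so p-values measure the spread between these libraries, which may be technical.

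The endoplasmic reticulum is the main releasable calcium store of an endocrine cell. SERCA pumps load it from the cytosol. IP3 receptors open when phospholipase C has made IP3 at the plasma membrane, and ryanodine receptors open on calcium itself and are best known from muscle and brain. STIM proteins span the store membrane, sense its calcium content through an EF hand in the lumen, and open ORAI channels in the plasma membrane when the store empties. In pancreatic islets this system shapes the cytosolic calcium signals that drive hormone release, and SERCA3, the product of Atp2a3, is known as a pump of beta cells.

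RNA-seq libraries held 21954031 to 25004959 expected counts in αTC1 and 24554808 to 26033482 in βTC6. ATAC-seq libraries held 6903416 to 8300868 reads in peaks in αTC1, 4397851 to 10374903 in βTC6 and 5277983 to 7294832 in the mixtures. The 5 alpha cell markers were all higher in αTC1 and the 7 beta cell markers all higher in βTC6. βTC6 also held Gcg at 172 to 267 FPKM and Sst, the delta cell hormone, at 207 to 325 FPKM, against 0 FPKM of Sst in αTC1. Ppy ran from 3.7 to 50.8 FPKM in βTC6, and was at or below 0.1 FPKM in αTC1. The acinar marker Cela1 and the fibroblast markers Col1a2 and Pdgfra were higher in αTC1, at 1.04 to 3.7 FPKM. Of the rest of those lists, Col1a1 averaged 0.14 FPKM in αTC1 and 0.13 FPKM in βTC6, Cpa1 and Krt19 were at or below 0.08 FPKM, and Prss2 and Col3a1 were at 0 in all 6 libraries. The leukocyte marker Cd68 was higher in βTC6, at 2.02 to 2.18 FPKM against 0.92 to 1.2 FPKM, with Ptprc and Cd3e at or below 0.03 FPKM. The other delta cell marker, Hhex, was at or below 0.02 FPKM in βTC6. The part of such cells or transcripts in the differences below was not tested.

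Atp2a3, a pump gene, differed most in RNA. Of the 10 genes, 7 passed the expression filter (FPKM, reads scaled to transcript length and library size, of at least 1 in all libraries of either line), and all 7 differed between the lines at an FDR under 5% in edgeR, as did 74.6% of all 12195 genes tested. Itpr3, Stim1, Atp2a2 and Atp2a3 were higher in βTC6, against 38.7% of all genes, and Itpr1, Ryr2 and Stim2 were higher in αTC1, against 36%. Past a log2 fold change of 2 as well (14.3% of all genes in either direction), 3 genes were higher in βTC6 (Itpr3, Atp2a2 and Atp2a3, where 10.2% of all genes were) and 0 in αTC1 (4.08% of all genes). With scaling by the ERCC spike-ins 2 were past both thresholds in βTC6, and with limma on log2(FPKM + 1) only Atp2a3 was. Itpr3 and Atp2a3 passed the filter only through βTC6, and Ryr2 only through αTC1, so these 3 had to differ. Log2 fold changes are βTC6 over αTC1 on counts, given with their standard error. The adjusted p-values of genes are from edgeR.

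Atp2a3 encodes SERCA3, a pump of lower calcium affinity than SERCA2. Its FPKM was 0.07, 0.13 and 0.12 in αTC1 and 134.5, 128.9 and 131.5 in βTC6. It was thus near the floor of detection in every αTC1 library, with 7, 14 and 14 counts, and abundant and even in every βTC6 library. The log2 fold change was 10.26 ± 0.15 (adjusted p = 1.11e-09), the 126th largest among all genes tested. The ratio of pooled counts per total was 1190, with a 95% exact interval of 854 to 1710 that covers counting error only.

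Atp2a2 encodes SERCA2, the pump of nearly all cell types, and was the most abundant of the 10 genes in both lines. Its FPKM was 118.4, 119.6 and 105.3 in αTC1 and 427.3, 399.9 and 547.6 in βTC6. The groups did not overlap, and βTC6 replicate 3 stood above its fellows. On the log2 scale the difference was 2.06 ± 0.14 (adjusted p = 1.31e-06). It was 1.91 without βTC6 replicate 3, which takes it below the fold threshold but not past the FDR. The summed FPKM of the 2 pumps was 114.6 ± 7.94 in αTC1 and 589.9 ± 79.0 in βTC6 (SD, n = 3). Atp2a3 made 0.0938% ± 0.0302 of that sum in αTC1 and 22.6% ± 2.78 in βTC6, so most of the pump RNA was Atp2a2 in both lines.

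**Figure D1:**
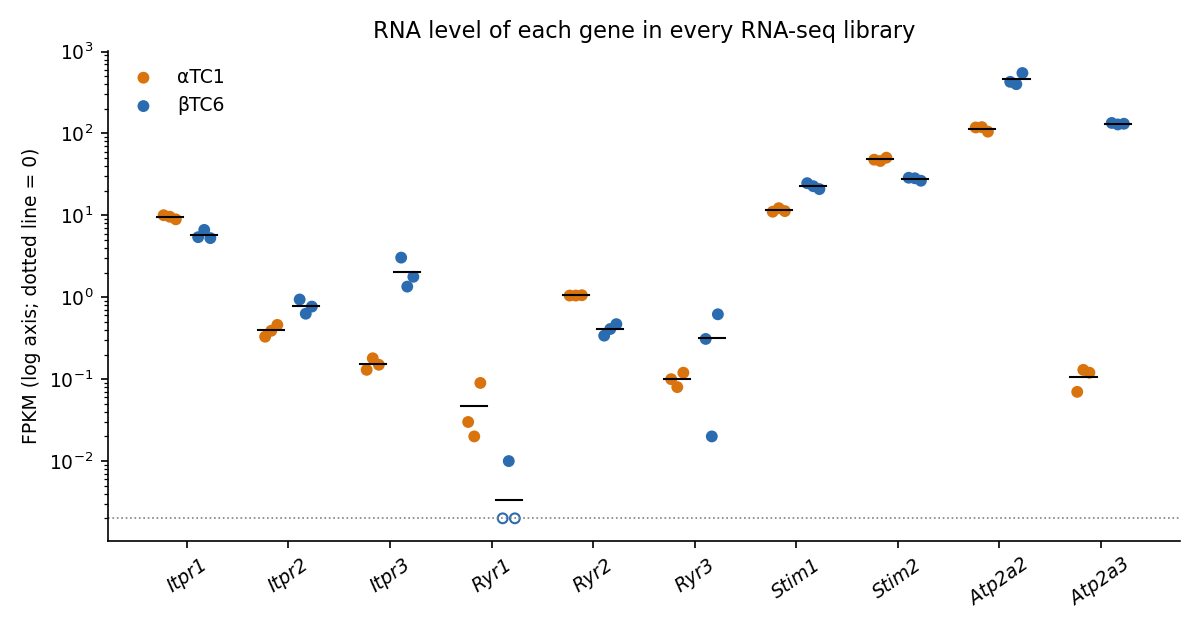
FPKM of the 10 genes (log axis, with the dotted line standing for 0) in the 3 αTC1 and 3 βTC6 RNA-seq libraries, 1 point per library and a black line at the mean. Atp2a3 points do not exceed 0.13 in αTC1 or fall below 128.9 in βTC6, and Ryr3 is the only gene whose 2 groups overlap.

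The store sensors changed in opposite directions. Stim1, the sensor that responds to strong store depletion, was at 11.09, 12.25 and 11.28 FPKM in αTC1 and at 24.74, 22.71 and 20.94 FPKM in βTC6. Its log2 fold change was 1.04 ± 0.086 (adjusted p = 5.23e-06). Stim2, which is known for answering to small falls in store calcium, was at 47.88, 46.14 and 50.66 FPKM in αTC1 and at 28.82, 28.4 and 26.49 FPKM in βTC6. Its log2 fold change was -0.78 ± 0.088 (adjusted p = 3.95e-05). Neither gene's groups overlapped. Stim2 stayed the more abundant sensor per transcript length in every library, but Stim1 rose from 19.3% ± 1.46 of their summed FPKM in αTC1 to 44.9% ± 1.11 in βTC6. The sum itself was 59.8 ± 1.90 FPKM in αTC1 and 50.7 ± 3.09 FPKM in βTC6. With the libraries scaled by the ERCC spike-ins instead, Stim1 (log2 fold change 1.03, adjusted p = 0.0644), Stim2 (-0.77, adjusted p = 0.201) and Itpr1 (-0.82, adjusted p = 0.163) no longer passed, with their directions kept.

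Among the IP3 receptors the dominant isoform fell and a minor isoform rose. Itpr1, the isoform best known from neurons, was at 10.05, 9.63 and 8.95 FPKM in αTC1 and at 5.42, 6.65 and 5.28 FPKM in βTC6, with no overlap and a log2 fold change of -0.83 ± 0.10 (adjusted p = 7.29e-05). Itpr3, an isoform common in secretory epithelia, was at 0.13, 0.18 and 0.15 FPKM in αTC1 and at 3.05, 1.35 and 1.78 FPKM in βTC6. The βTC6 libraries were all higher but differed among themselves, with replicate 1 the highest, and the log2 fold change was 3.80 ± 0.33 (adjusted p = 6.56e-06). Exons of Itpr3 overlap those of 1700062I23Rik, and the counting did not use strand, so reads from the pair cannot be told apart there.

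Itpr2, the isoform with the highest affinity for IP3, was below the expression filter in both lines. Its FPKM was 0.33, 0.39 and 0.46 in αTC1 and 0.94, 0.63 and 0.77 in βTC6. The groups did not overlap, and a fit with no filter gave 1.41 ± 0.20 (adjusted p = 4.48e-05). The summed FPKM of the family was 10.1 ± 0.485 in αTC1 and 8.62 ± 0.790 in βTC6. Itpr1 made 94.6% ± 1.01 of it in αTC1 and 67.4% ± 9.73 in βTC6, and Itpr3 made 1.52% ± 0.267 and 23.6% ± 8.42. In βTC6 the Itpr3 share varied from 15.6% to 32.4% between libraries.

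**Figure D2:**
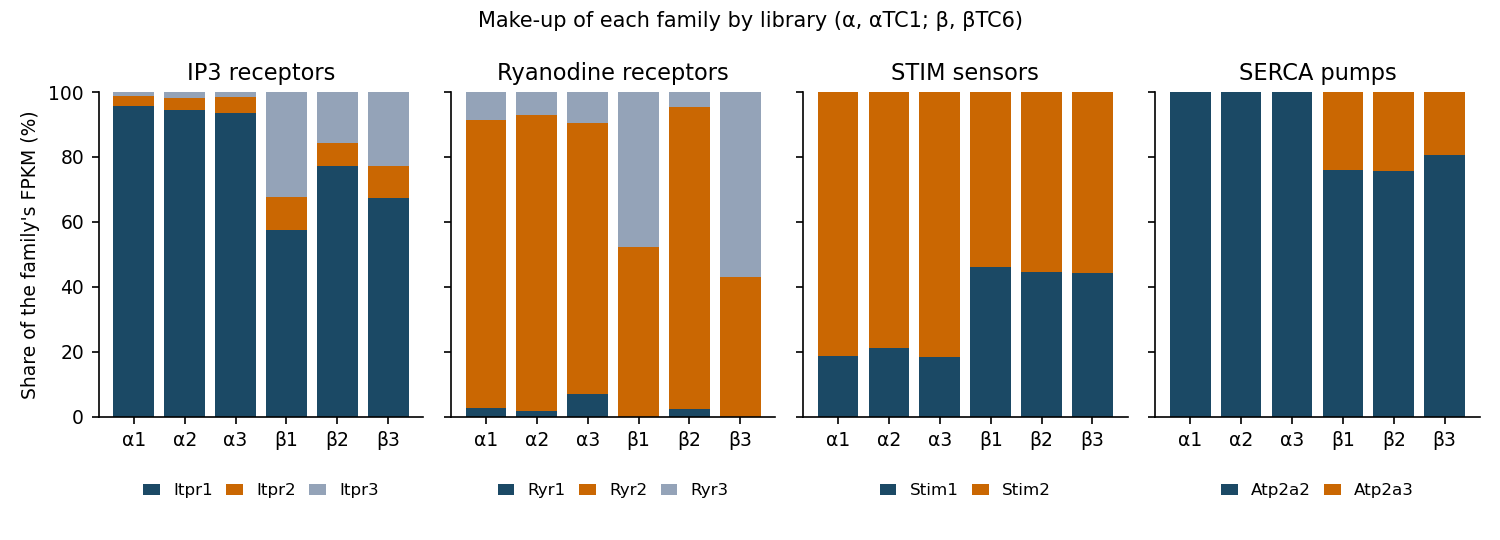
Share of each family's summed FPKM (%, stacked bars, 1 bar per RNA-seq library) taken by each of its genes. Stim1 takes 18.2% to 21.0% in αTC1 and 44.2% to 46.2% in βTC6, Atp2a3 appears only in the βTC6 bars at this scale, and the ryanodine receptor bars of βTC6 differ between libraries.

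The ryanodine receptors were low in both lines. Ryr2, the isoform of heart and brain, was at 1.05, 1.05 and 1.06 FPKM in αTC1 and at 0.34, 0.41 and 0.47 FPKM in βTC6. The groups were apart, with a log2 fold change of -1.33 ± 0.14 (adjusted p = 2.44e-05). Ryr1, the isoform of skeletal muscle, had 9, 9 and 36 counts in αTC1 and 1, 3 and 0 counts in βTC6. The ratio of pooled counts was 14.5 toward αTC1, with a 95% exact interval of 5.33 to 55 for counting error only, and αTC1 replicate 3 held most of those counts. Exons of Ryr1 overlap those of Gm16799, so the source of these few counts is uncertain.

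Ryr3 had 8, 14 and 6 counts in αTC1 and 96, 7 and 74 counts in βTC6. Replicate 2 of βTC6 was within the αTC1 range, and the other libraries of βTC6 were above it. A fit with no filter gave a log2 fold change of 2.54 ± 0.71 (adjusted p = 0.00757). The pancreatic polypeptide gene Ppy, at 50.8, 3.7 and 23.4 FPKM in βTC6, was also lowest in replicate 2, as was Itpr3 (719, 320 and 401 counts). Other hormone genes were not: Sst was lowest in replicate 1 (207 FPKM), and Gcg (172 FPKM) and Ins1 (1599 FPKM) in replicate 3. With 3 libraries such a match is common, and a link between these genes was not tested. Ryr3 shares exon positions with Aven, so its counts are uncertain too. The striated muscle markers summed to 0.11 to 0.21 FPKM in αTC1 and to 2.24 to 3.37 FPKM in βTC6. Acta1 was at 0.03 to 0.14 FPKM in αTC1 and 1.96 to 2.73 in βTC6, Actn2 was next in βTC6 at 0.24 to 0.58, and Tnnt3 was at 0 in every library. The part of such cells in the Ryr levels was not tested.

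Per transcript length, the order of mean levels in αTC1 was Atp2a2, Stim2, Stim1, Itpr1, Ryr2, Itpr2, Itpr3, Atp2a3, Ryr3 and Ryr1. The ranges of the last 4 overlapped from neighbour to neighbour. In βTC6 the order was Atp2a2, Atp2a3, Stim2, Stim1, Itpr1, Itpr3, Itpr2, Ryr2, Ryr3 and Ryr1. There the ranges of Ryr2 and Ryr3 overlapped, and all other neighbours were apart. Atp2a3 was in 8th place in αTC1 and in 2nd place in βTC6.

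The genes with the most similar levels over the 6 libraries were found by the Euclidean distance of log2(FPKM + 1). For Atp2a3 they were Pdx1 (distance 0.526), Cdhr1 (0.708) and Blnk (0.786). For Atp2a2 they were Acly (0.309), Spc25 (0.412) and Rnasek (0.498). For Itpr3 they were Spon2 (0.247), Sema3c (0.283) and Enpp1 (0.302). Pdx1, a beta cell transcription factor, averaged 111 FPKM in βTC6 and 0 in αTC1.

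Of 90 further genes that act on the store, 64 passed the expression filter. In βTC6 44 were higher (68.8%, against 38.7% of all genes) and in αTC1 11 were higher (17.2%, against 36%), at an FDR under 5%. Past the fold threshold as well, 10 were higher in βTC6 and 1 in αTC1 (17.2% together, against 14.3% of all genes). Of those 10, 9 passed the expression filter only through βTC6, and Sln, the 1 in αTC1, only through αTC1, so they had to differ. Homer3 is the exception. Likewise 12 of the 44 and 1 of the 11 passed only through the line in which they were higher. With spike-in scaling the counts were 21 and 1, against 16.8% and 10.9% of all genes. The median log2 fold change of all genes tested was 0.00939.

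In store-operated entry, 4 of 5 tested genes were higher in βTC6 and 0 in αTC1, with a median log2 fold change of 1.12, and with spike-in scaling 3 and 0 were. Orai2, a channel subunit that STIM proteins open, was at 6.19 to 6.58 FPKM in αTC1 and 16.5 to 18.6 FPKM in βTC6, with a log2 fold change of 1.49 ± 0.083 (adjusted p = 4.39e-07). Tmem110, an endoplasmic reticulum protein that promotes STIM signalling, had 1.68 ± 0.19 (adjusted p = 4.45e-05). Tmem66, also known as Saraf and a brake on STIM, had 1.12 ± 0.097 (adjusted p = 6.77e-06). Orai1 had 0.99 ± 0.16 (adjusted p = 0.000353). Orai3 had 0.01 ± 0.11 (adjusted p = 0.921).

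All 8 tested genes of the phospholipase C family were higher in βTC6, with a median of 0.98, and 2 passed the fold threshold. With spike-in scaling 2 of the 8 were higher there. Plch1 had a log2 fold change of 2.41 ± 0.17 (adjusted p = 2.15e-06). Plcl1, a relative of phospholipase C that has no catalytic activity and binds IP3, had 0, 1 and 0 counts in αTC1 and 378, 316 and 304 counts in βTC6, a ratio of 932 with a 95% counting interval of 167 to 36800. Plcg2 had 1.21 ± 0.26 (adjusted p = 0.00228) and Plcl2 1.03 ± 0.080 (adjusted p = 3.55e-06).

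The list for IP3 removal also holds phosphatases of other inositol phosphates and lipids (Inpp1, Inpp4a and Inpp4b), so its counts are not about IP3 alone. Of its 7 tested genes, 3 were higher in βTC6, near the background of 38.7%, and 0 in αTC1. The median was 0.34, and with spike-in scaling 2 and 0 were higher. Itpkb, a kinase that turns IP3 into a form that no longer opens its receptor, had 1, 1 and 2 counts in αTC1 and 2403, 3097 and 2273 in βTC6, a ratio of 1810 with a 95% counting interval of 708 to 6660. Inpp4b, a phosphatase of inositol lipids, was at 0.01 to 0.17 FPKM in αTC1 and 3.82 to 5.16 FPKM in βTC6, with a log2 fold change of 6.67 ± 0.34 (adjusted p = 2.86e-07). Inpp5b had 0.34 ± 0.078 (adjusted p = 0.00305).

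Of 4 tested IP3 receptor partners, 2 were higher in each line, with a median of 0.14, and with spike-in scaling 1 was higher in βTC6 and 0 in αTC1. Erp44, a lumenal inhibitor of the type 1 receptor, had a log2 fold change of 1.26 ± 0.15 (adjusted p = 4.68e-05), and Itprip, which binds the receptor and dampens it, had -0.84 ± 0.16 (adjusted p = 0.00124). Ahcyl1, which competes with IP3 for the receptor, had 0.64 ± 0.077 (adjusted p = 6.2e-05), and Ahcyl2 had -0.35 ± 0.073 (adjusted p = 0.00184). Of 7 tested ryanodine receptor partners, 3 were higher in each line, with a median of -0.17, and with spike-in scaling 2 were higher in βTC6 and 0 in αTC1. Fkbp1b, the stabilizing subunit known for binding the heart channel, was at 0.65 to 1.42 FPKM in αTC1 and 20.9 to 24.3 FPKM in βTC6, with a log2 fold change of 4.52 ± 0.23 (adjusted p = 3.03e-07). Its relative Fkbp1a was more abundant in both lines and lower in βTC6, by -0.38 ± 0.084 (adjusted p = 0.00264). Of the Homer scaffolds, Homer3 had 2.40 ± 0.16 (adjusted p = 1.56e-06) and Homer1 had -0.75 ± 0.12 (adjusted p = 0.000416). Sri, the calcium-binding regulator sorcin, had 0.64 ± 0.097 (adjusted p = 0.000284).

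Of the small SERCA regulators, Sln was found in αTC1 and Pln in neither line beyond 2 counts. Sln, the small membrane protein sarcolipin that inhibits SERCA in muscle, was at 29.4, 32.3 and 13.5 FPKM in αTC1 and at 0 in all 3 βTC6 libraries. With 311, 376 and 162 counts against a floor of 3 counts per library, it was at least 102-fold higher in αTC1 (adjusted p = 1.79e-05). Pln, the related phospholamban, had 0 counts in 5 libraries and 2 counts in βTC6 replicate 3. Atp2c1, the calcium pump of the Golgi, was higher in βTC6 by 0.26 ± 0.080 (adjusted p = 0.0155). Over these 2 tested genes of the list the median was -5.46, or -3.21 with Sln at its bound, with 1 gene higher in each line. With spike-in scaling only Sln of these 2 passed.

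Of the 11 tested genes of the store lumen and leak, 8 were higher in βTC6 and 3 in αTC1, with a median of 0.99, and with spike-in scaling 5 and 0 were. Rcn1, a calcium-binding protein of the lumen, was at 0.31 to 0.41 FPKM in αTC1 and 21.7 to 23.0 FPKM in βTC6, with a log2 fold change of 6.04 ± 0.14 (adjusted p = 4.14e-09). Tmem38b, a counter-ion channel of the store, had 1.93 ± 0.26 (adjusted p = 0.000126). Calr, the main lumenal calcium buffer calreticulin, was at 334 to 385 FPKM in αTC1 and 854 to 1160 FPKM in βTC6, with 1.56 ± 0.14 (adjusted p = 8.11e-06). Canx, its membrane-bound relative, had 1.46 ± 0.11 (adjusted p = 3.34e-06). The genes higher in αTC1 were Tmco1, a channel that leaks calcium from an overfilled store (-0.96), Calu, the lumenal calcium binder calumenin (-0.73), and Tmem38a (-0.24).

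Of 6 tested plasma membrane extrusion genes, 4 were higher in βTC6 and 1 in αTC1, with a median of 2.06, and with spike-in scaling 4 and 0 were. Slc8a1, the sodium-calcium exchanger NCX1, was at 0 to 0.1 FPKM in αTC1 and 9.73 to 12.1 FPKM in βTC6, with a log2 fold change of 7.67 ± 0.41 (adjusted p = 3.44e-07). Slc8a3 had 3.30 ± 0.21 (adjusted p = 9.96e-07), Atp2b4 2.63 ± 0.26 (adjusted p = 1.68e-05) and Slc8a2 1.5 ± 0.35 (adjusted p = 0.00386). Atp2b2, a plasma membrane calcium pump, was the gene higher in αTC1 (-0.70).

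Of 11 tested genes for mitochondrial uptake, 9 were higher in βTC6 and 0 in αTC1, with a median of 0.50, and with spike-in scaling 1 was. Efha1 (also Micu2), a gatekeeper of the mitochondrial uniporter, had a log2 fold change of 1.39 ± 0.11 (adjusted p = 3.01e-06), Vdac2, a channel of the outer membrane, 0.74 ± 0.089 (adjusted p = 6.2e-05), Letm1 0.61 ± 0.12 (adjusted p = 0.00142) and Ccdc109a, the uniporter pore itself, 0.61 ± 0.11 (adjusted p = 0.000703). Of 3 tested lysosomal channels, Mcoln1, a calcium release channel, was higher in βTC6 by 1.2 ± 0.12 (adjusted p = 2.07e-05) and Tpcn1 by 0.51 ± 0.089 (adjusted p = 0.000621), and Tpcn2 was lower by -0.63 ± 0.18 (adjusted p = 0.012). Their median was 0.51, and with spike-in scaling 1 was higher in βTC6 and 0 in αTC1.

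**Figure D3:**
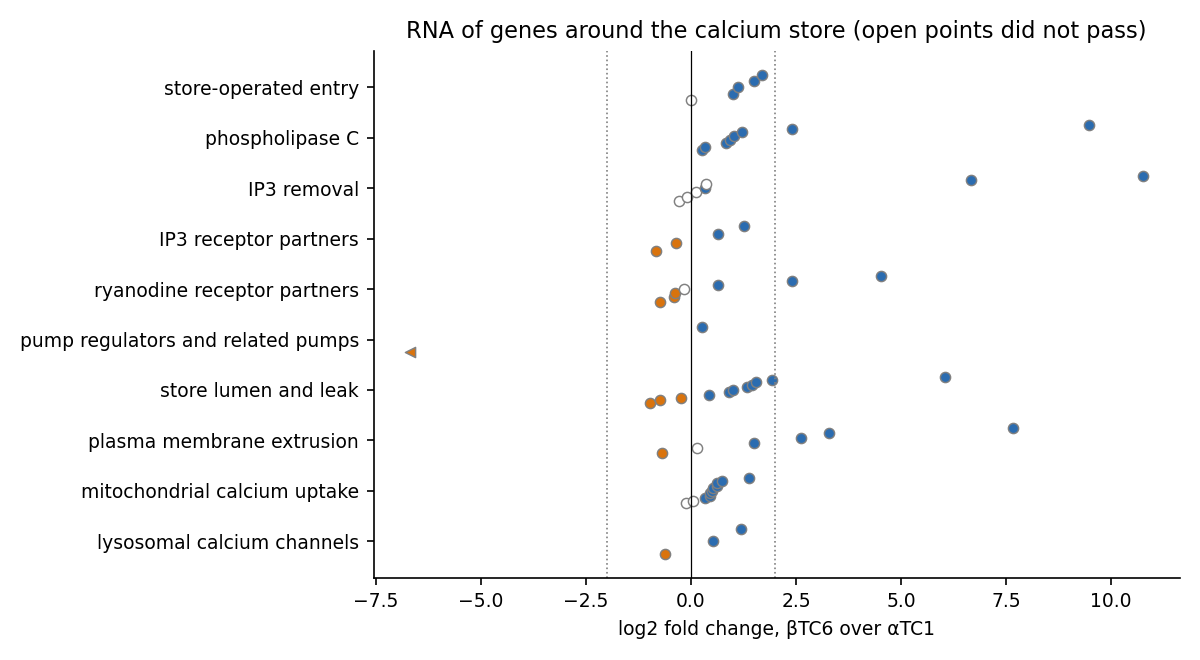
Log2 fold change (βTC6 over αTC1, edgeR) of the 64 tested genes around the calcium store, 1 point per gene in rows by list, filled where the FDR was under 5% (blue, higher in βTC6; orange, higher in αTC1), with dotted lines at the fold threshold. The triangle is Sln, drawn at its bound of 102-fold higher in αTC1, and Itpkb, Plcl1, Slc8a1, Inpp4b and Rcn1 are the points farthest to the right.

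Chromatin at the same genes was compared over the 62 peaks, in normalized read counts with 5 libraries per line. At an FDR under 5% in limma, 52 differed, as did 78% of all 65053 peaks, and 10 did not pass. Accessibility was greater in βTC6 at 32 peaks (51.6%, against 39.9% of all peaks) and in αTC1 at 20 (32.3%, against 38.1%). The median log2 fold change was 0.47 over the 62 peaks and 0.00111 over all peaks. Past a log2 fold change of 2 as well, 9 peaks remained (18.3% of all peaks did), of which 7 opened toward βTC6 (11.3% of the 62, against 12.9% of all peaks) and 2 toward αTC1 (3.23%, against 5.38%). Those shares lie near or below the background. The study tallied mitochondrial reads differently in replicates 1 to 3 of each line than in replicates 4 and 5, so these were also compared apart. The counts past both thresholds were 6 and 2 within replicates 1 to 3, and 6 and 4 within replicates 4 and 5. A pseudocount of 0.5 gave 11 and 3, a pseudocount of 5 gave 1 and 2, edgeR on recovered reads gave 11 and 4, and peaks with a mean of at least 5 gave 3 and 2. Quantile normalization gave 5 and 4, and moved the βTC6 share of all such peaks from 70.6% to 52.5%.

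By family, 9 of 11 SERCA peaks opened toward βTC6 and 1 toward αTC1, with a median log2 fold change of 1.75, where 39.9% and 38.1% of all peaks did. Of 13 ryanodine receptor peaks, 7 opened toward βTC6 and 2 toward αTC1. The 16 IP3 receptor peaks were divided 7 and 7, and the 22 STIM peaks 9 and 10, both near those shares of all peaks. No IP3 receptor peak passed the fold threshold in the main fit, against 18.3% of all peaks that passed both thresholds. This depends on the processing. The intronic Itpr3 peak at chr17:27208628 passed both with a pseudocount of 0.5 (-2.04), quantile normalization (-2.08) and edgeR on recovered reads (-2.50). It also passed both within replicates 4 and 5 (-2.14).

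**Figure D4:**
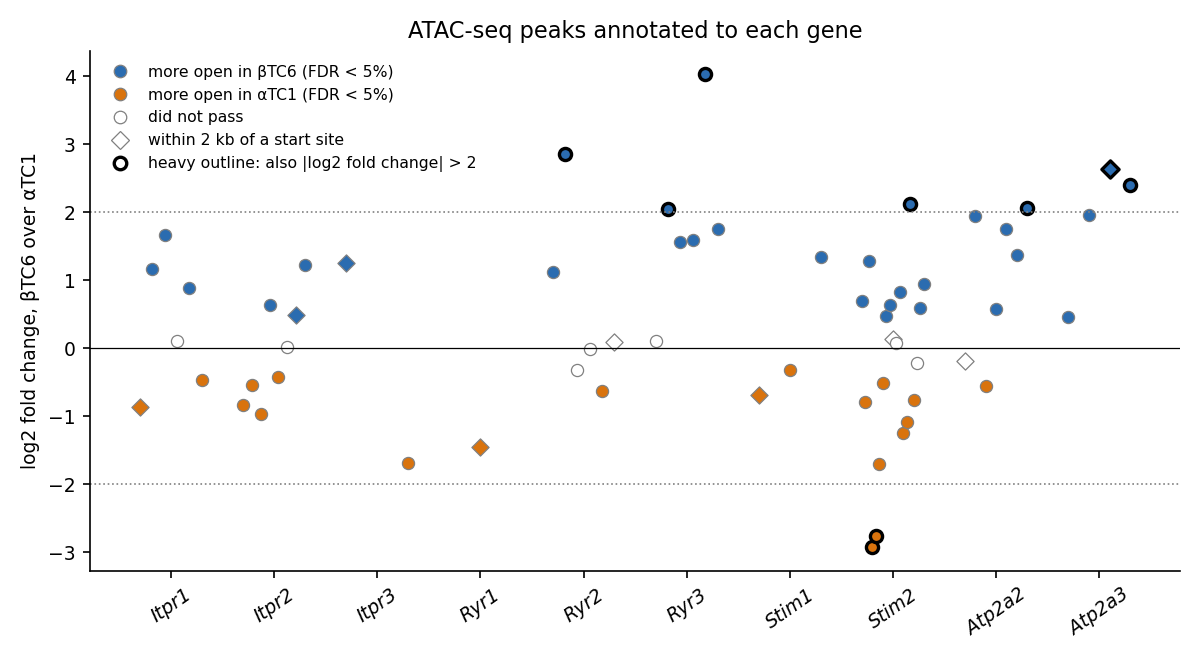
Log2 fold change (βTC6 over αTC1, limma) of the 62 ATAC-seq peaks, 1 point per peak in columns by nearest gene, blue or orange at an FDR under 5%, diamonds within 2 kb of a start site, heavy outlines past the dotted fold threshold too. Ryr3 at 4.03 is the highest point and the Stim2 pair at -2.92 and -2.75 the lowest, and all 4 Atp2a3 peaks lie above 0.

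The peaks that passed both thresholds were 3 of the SERCA genes, 3 of the ryanodine receptor genes and 3 of Stim2. Reference sequence of the mm9 build from the plus strand is shown for 6 of them, so that the release channels, the sensor and the pump are each represented by a site that differed. Each is the central 200 bases of the peak, except for Atp2a3, where it is the 203 bases of the promoter peak that precede the annotated start of the gene. Capitals mark matches to TAATTA (a homeodomain core), TGTTTAC (a forkhead motif) or CAGCTG (an E-box) on either strand.
Ryr3, chr2:112833690-112833889: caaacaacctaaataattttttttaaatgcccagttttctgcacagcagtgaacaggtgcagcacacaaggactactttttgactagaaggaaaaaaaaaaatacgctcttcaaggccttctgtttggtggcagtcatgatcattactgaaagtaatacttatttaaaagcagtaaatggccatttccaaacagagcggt
Ryr3, chr2:112678866-112679065: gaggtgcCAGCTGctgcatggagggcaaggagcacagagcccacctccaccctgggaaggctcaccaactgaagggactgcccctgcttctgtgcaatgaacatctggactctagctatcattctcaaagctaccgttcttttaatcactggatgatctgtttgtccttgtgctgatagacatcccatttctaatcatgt
Ryr2, chr13:11972860-11973059: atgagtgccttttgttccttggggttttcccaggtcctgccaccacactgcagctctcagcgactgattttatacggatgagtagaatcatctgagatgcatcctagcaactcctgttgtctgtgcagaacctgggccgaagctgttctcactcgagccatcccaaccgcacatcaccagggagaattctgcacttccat
Stim2, chr5:54352514-54352713: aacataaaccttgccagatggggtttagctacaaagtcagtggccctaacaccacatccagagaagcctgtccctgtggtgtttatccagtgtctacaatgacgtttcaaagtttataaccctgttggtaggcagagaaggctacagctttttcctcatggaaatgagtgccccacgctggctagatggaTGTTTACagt
Stim2, chr5:54353409-54353608: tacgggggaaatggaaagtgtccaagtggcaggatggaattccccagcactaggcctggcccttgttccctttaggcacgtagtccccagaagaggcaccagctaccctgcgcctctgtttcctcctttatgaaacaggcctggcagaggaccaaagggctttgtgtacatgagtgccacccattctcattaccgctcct
Atp2a3, chr11:72774468-72774670: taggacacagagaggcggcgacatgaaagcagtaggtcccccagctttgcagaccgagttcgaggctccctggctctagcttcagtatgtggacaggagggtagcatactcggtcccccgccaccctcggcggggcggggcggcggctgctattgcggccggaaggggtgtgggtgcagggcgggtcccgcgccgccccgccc
The stretch before Atp2a3 had 69% G and C, and the central stretch of the Ryr3 peak at chr2:112833400-112834179 had 37%.

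A forkhead match stood in the Stim2 window at chr5:54352514-54352713 and an E-box match in the Ryr3 window at chr2:112678866-112679065. The central 200 bases of 4 of the 62 peaks held TGTTTAC (6.45%, against 6.31% of all peaks), and these 4 were all peaks of Stim2. TAATTA was found in 3 of the 62 (4.84%, against 6.93%) and CAGCTG in 12 (19.4%, against 17.2%). A match is a description of the letters and shows no binding.

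Both SERCA genes had peaks that were open in βTC6 and nearly closed in αTC1. The Atp2a3 promoter peak, chr11:72774468-72774945 over the first exon, had normalized read counts of 0.980, 0.421, 0.150, 0.409 and 0.144 in αTC1 and of 9.23, 6.15, 9.46, 12.8 and 3.66 in βTC6. The αTC1 values rest on 1 to 7 reads, and every βTC6 library was above every αTC1 library. This gave a log2 fold change of 2.64 ± 0.26 (adjusted p = 1.63e-08). On this scale, log2(normalized read count + 1), changes of low peaks are understated. An intronic peak 4.41 kb into the gene, chr11:72778969-72779190, had 0.420, 0.141, 0.150, 0.137 and 1.01 in αTC1 and 4.54, 9.64, 8.24, 5.71 and 3.76 in βTC6, with a log2 fold change of 2.40 ± 0.24 (adjusted p = 1.61e-08).

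The Atp2a2 promoter peak, chr5:122951551-122952924, did not differ past the threshold, with a log2 fold change of -0.18 ± 0.12 (adjusted p = 0.191). The αTC1 values ran from 28.9 to 47.9 and those of βTC6 from 26.7 to 36.8, so the groups overlapped. Of the other 6 Atp2a2 peaks, all between 24998 and 48553 bases upstream, 5 were more open in βTC6, where 39.9% of all peaks were. The farthest of them, chr5:123000549-123001024, overlaps an exon of the gene Ift81 and had 0.7, 0.983, 0.601, 0.409 and 0.722 in αTC1 and 6.96, 7.18, 6.08, 5.56 and 4.51 in βTC6, with a log2 fold change of 2.06 ± 0.19 (adjusted p = 6.63e-09).

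Ryr3 had the peak with the widest difference. The peak chr2:112833400-112834179, in an intron and 36.7 kb from the start site, had 0.420, 0.843, 0.902, 1.23 and 1.01 in αTC1 and 23.2, 36.3, 25.3, 27.1 and 37.4 in βTC6. It was thus at 3 to 9 reads in αTC1 and at 163 to 398 in βTC6, and the log2 fold change was 4.03 ± 0.20 (adjusted p = 9.44e-13). Of the 6 Ryr3 peaks, 5 opened toward βTC6 and 0 toward αTC1, where 39.9% and 38.1% of all peaks did. No Ryr3 peak was within 2 kb of its start site. The nearest, chr2:112895627-112896017 at 25.3 kb upstream of that site and within the annotated gene, had a log2 fold change of 1.75 ± 0.18 (adjusted p = 1.94e-08). This accessibility stood beside an RNA that did not exceed 0.62 FPKM in any library.

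At Ryr2, RNA and an intronic peak went in opposite directions. The peak chr13:11972530-11973388, 226 kb into the gene, had 1.54, 2.53, 2.40, 1.64 and 2.60 in αTC1 and 18.9, 18.1, 18.2, 22.4 and 33.2 in βTC6. On the log2 scale this was 2.86 ± 0.20 (adjusted p = 1.10e-10), whereas Ryr2 RNA was higher in αTC1. The Ryr2 promoter peak, chr13:12198167-12199490, had means of 34.7 ± 3.48 in αTC1 and 37.2 ± 4.23 in βTC6 (SD, n = 5), and its log2 fold change of 0.10 ± 0.10 did not pass (adjusted p = 0.382). Of the 6 Ryr2 peaks, 2 opened toward βTC6 (33.3%, against 39.9% of all peaks) and 3 did not pass. The intronic peak at chr13:12051900 (-0.63) was the 1 that opened toward αTC1, as the RNA did (16.7%, against 38.1%).

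Stim2 had 19 peaks, the most of the 10 genes, with 8 more open in each line. That is 42.1% each, near the 39.9% (βTC6) and 38.1% (αTC1) of all peaks. A pair of peaks 37.1 and 36.3 kb upstream were the only ones of the 62 past both thresholds in αTC1. The first, chr5:54352402-54352824, had 43.1, 36.5, 44.2, 37.8 and 45.1 in αTC1 and 4.83, 6.97, 4.05, 6.28 and 2.16 in βTC6, with a log2 fold change of -2.92 ± 0.19 (adjusted p = 4.70e-11). The second, chr5:54353156-54353860, had 42.4, 44.7, 49.0, 48.6 and 44.5 in αTC1 and 4.83, 5.74, 8.11, 2.85 and 10.7 in βTC6, with -2.75 ± 0.21 (adjusted p = 2.90e-10). Both were far above the βTC6 libraries in every αTC1 library, and neither overlapped an annotated gene.

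Other Stim2 peaks went the other way. An intronic peak 92.9 kb from the start, chr5:54482388-54483020, had a mean of 4.89 ± 1.35 in αTC1 and 24.2 ± 2.84 in βTC6, with 2.12 ± 0.17 (adjusted p = 5.47e-10). The promoter peak, chr5:54389176-54390838, had means of 99.7 ± 2.32 and 109.2 ± 4.80 and a log2 fold change of 0.13 ± 0.074 (adjusted p = 0.117), although its groups did not overlap. Other genes' peaks within 500 kb of Stim2 numbered 31 and had a median log2 fold change of 1.22, against 0.306 over chromosome 5.

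Of the 9 genes with a promoter peak, 3 had it more open in βTC6 (Itpr2, Itpr3 and Atp2a3), 3 in αTC1 (Itpr1, Ryr1 and Stim1), and 3 did not pass (Ryr2, Stim2 and Atp2a2). These shares, 33.3% in each direction, lie near the 39.9% and 38.1% of all peaks. Among the 7 genes tested for RNA, the promoter peak moved with the RNA in 3 (Itpr1, Itpr3 and Atp2a3), against it in 1 (Stim1) and did not pass in 3. The same shares over all genes were not computed, so whether these genes differ from the rest is not known. With quantile normalization the promoter peaks of Ryr2 (0.42) and Stim2 (0.62) passed toward βTC6, against their RNA. The Stim1 promoter peak, chr7:109415469-109416939, had 68.2, 66.7, 71.5, 68.9 and 61.2 in αTC1 and 43.9, 41.2, 40.4, 44.9 and 37.2 in βTC6. No libraries of the 2 lines overlapped, and the log2 fold change was -0.69 ± 0.085 (adjusted p = 3.73e-07), whereas Stim1 RNA was higher in βTC6. With quantile normalization it was -0.26 (adjusted p = 0.01), and that of the Itpr1 promoter peak went from -0.87 to -0.39 (adjusted p = 0.0017). The same setting took the Itpr3 promoter peak from 1.26 to 0.76 and the Itpr2 promoter peak from 0.49 to 0.80, and all 4 still passed.

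The Itpr1 promoter peak, chr6:108162380-108163541, had 108.0, 109.0, 97.2, 123.8 and 122.2 in αTC1 and 57.2, 52.3, 51.5, 72.6 and 74.0 in βTC6, with -0.87 ± 0.11 (adjusted p = 4.69e-07). These differences lie beside shifts of their surroundings. The median log2 fold change of all peaks was -0.792 on chromosome 6 and -0.567 on chromosome 7. Within 500 kb, other genes' peaks had medians of -1.01 over 51 peaks around Itpr1 and of -0.767 over 24 peaks around Stim1, and the medians of other tested genes' RNA were -0.026 and -0.0609. The part of these regional shifts in the promoter differences was not tested. An intronic Itpr1 peak, chr6:108227668-108228500, went against these medians, with means of 2.73 ± 0.564 in αTC1 and 10.9 ± 2.1 in βTC6 and a log2 fold change of 1.67 ± 0.20 (adjusted p = 2.59e-07). Of the other intronic Itpr1 peaks, those at chr6:108205718 (1.16) and chr6:108243500 (0.89) also opened toward βTC6. The one at chr6:108285132 (-0.47) opened toward αTC1, and 1 did not pass.

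The promoter peaks of Itpr3, Itpr2 and Ryr1 remain. That of Itpr3, chr17:27194071-27194602, had αTC1 values of 1.12 to 2.95 and βTC6 values of 2.82 to 6.85, with 1.26 ± 0.24 (adjusted p = 8.17e-05) and some overlap of the groups. A peak in an Itpr3 intron, chr17:27208628-27208926, was more open in αTC1, with means of 4.91 ± 0.932 and 0.939 ± 0.855 and a log2 fold change of -1.68 ± 0.23 (adjusted p = 1.78e-06). The promoter peak of Itpr2, chr6:146449913-146451265, had means of 29.9 ± 2.14 and 42.8 ± 7.84, with 0.49 ± 0.11 (adjusted p = 0.000482). A second Itpr2 peak, chr6:146462309-146462826 upstream of the gene, had means of 1.73 ± 0.841 and 5.24 ± 0.954, with 1.23 ± 0.23 (adjusted p = 6.4e-05). Ryr1 had a single peak, chr7:29910193-29910402 at its start, with means of 3.6 ± 1.05 in αTC1 and 0.708 ± 0.519 in βTC6 and a log2 fold change of -1.45 ± 0.22 (adjusted p = 4.39e-06).

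The mixtures held αTC1 and βTC6 cells in steps of 10% and were not used in the comparison of the lines. They ask whether the 9 peaks past both thresholds follow the share of βTC6 cells. Pearson's r and Spearman's rho were computed over the 9 mixtures, with exact 2-sided permutation tests and adjustment over the 9 peaks. The signs were those of the pure lines in all 9, and all 9 passed. Since the peaks were chosen for differing between the lines mixed, this was to be foreseen: of all 11911 peaks past both thresholds, 11909 had that sign, and 83% had an r at least as large as the lowest of the 9. For the Ryr3 peak at chr2:112833400 the normalized read count was 4.27 with 10% βTC6 cells, 16.4 with 50% and 32.8 with 90%, and r was 0.95 (exact permutation adjusted p = 0.000132) with rho 0.95 (0.000635).

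The Stim2 pair fell along the mixtures. The first peak was at 39.2, 23.7 and 14.1 with 10%, 50% and 90% βTC6 cells (r = -0.954, exact permutation adjusted p = 0.000308; rho = -0.967, 0.000635), and the second was at 38.2, 26.3 and 12.8 (r = -0.968, 0.000236; rho = -0.95, 0.000635). The Ryr2 peak was at 2.84, 18.3 and 22.5, and ran from 20.9 to 22.9 in the mixtures of 60% to 90% (r = 0.958, exact permutation adjusted p = 9.92e-05; rho = 0.95, 0.000635). For the Stim2 peak at 92.9 kb, r was 0.939 (exact permutation adjusted p = 9.92e-05) and rho 0.983 (0.000446), and for the Ryr3 peak at chr2:112678662, r was 0.922 (0.0011) and rho 0.933 (0.00112).

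The weakest relations were those of the 3 SERCA peaks. These were low, with βTC6 means of 6.06 to 8.27. The Ryr3 peak at chr2:112678662 was about as low (6.93) with r at 0.922, and the part of depth was not tested. The Atp2a3 promoter peak was at 0.203, 3.21 and 4.57 with 10%, 50% and 90% βTC6 cells (r = 0.867, exact permutation adjusted p = 0.00418; rho = 0.85, 0.00683), and the intronic one at 0.406, 1.32 and 2.82 (r = 0.884, 0.0011; rho = 0.867, 0.0058). The Atp2a2 upstream peak was at 0.203, 2.48 and 2.42 (r = 0.847, exact permutation adjusted p = 0.00752; rho = 0.75, 0.0255). Without the 10% and 90% mixtures, r was 0.73, 0.779 and 0.774 for these 3, and they no longer passed (exact permutation adjusted p = 0.0687, 0.0546 and 0.0603), on 7 points in place of 9. The other 6 still passed, with r from 0.918 to 0.967 in size. For the intronic Atp2a3 peak and the Atp2a2 peak, all 9 mixtures were below every pure βTC6 library.

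**Figure D5:**
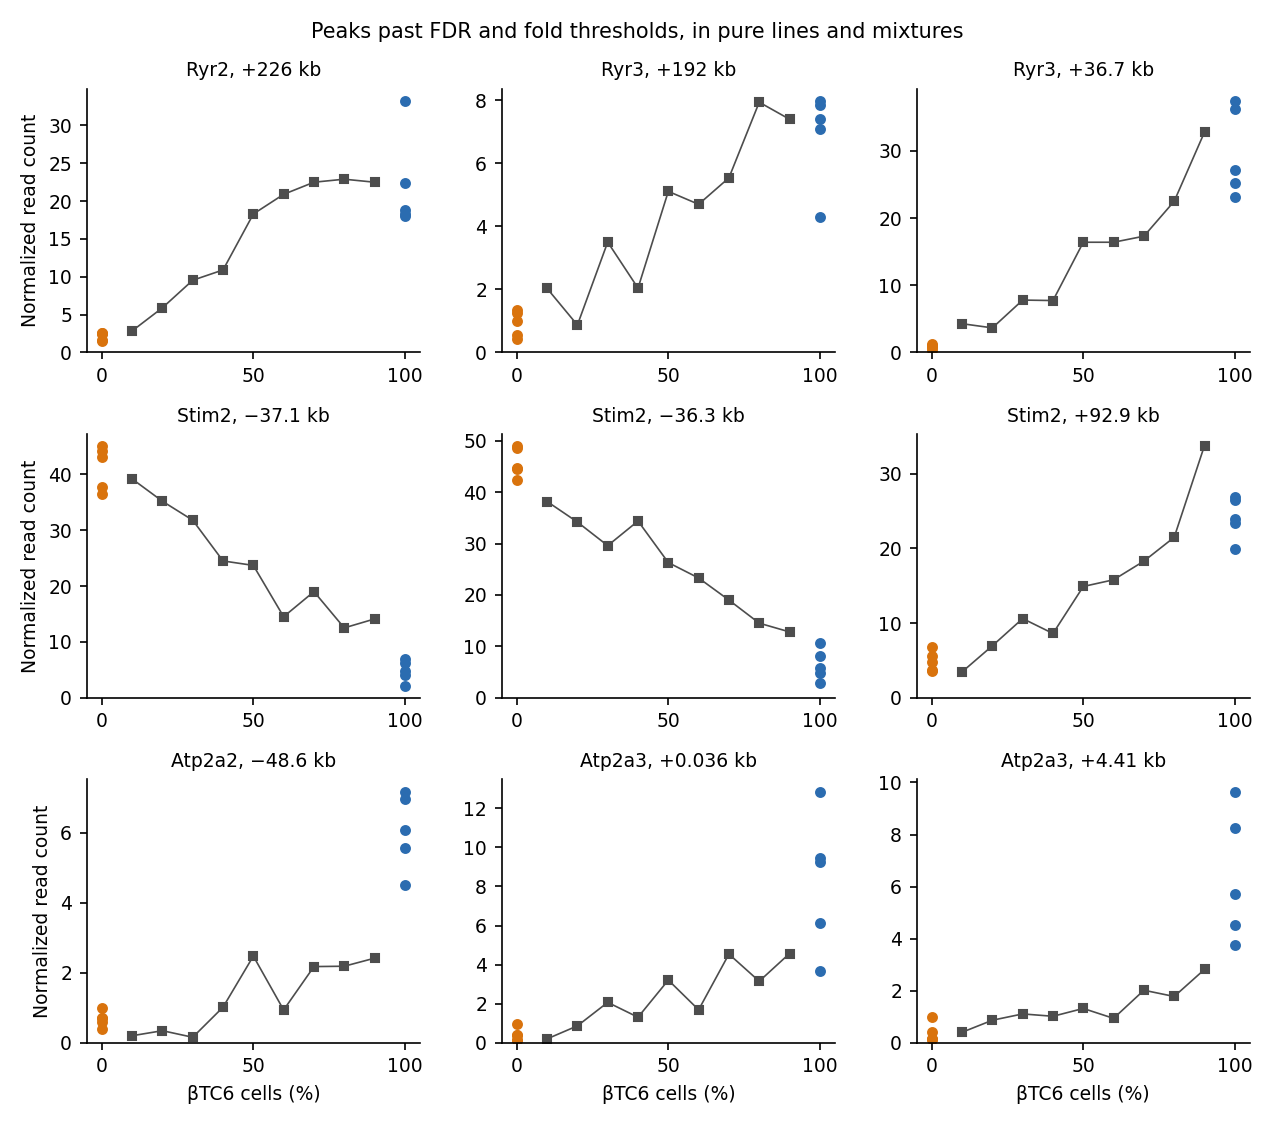
Normalized read count of the 9 peaks past both thresholds against the percentage of βTC6 cells, with the 5 αTC1 libraries at 0 (orange), the 5 βTC6 libraries at 100 (blue) and the 9 mixtures as joined squares, titled by gene and distance to its start site. The Stim2 pair falls and the other 7 peaks rise, and in the bottom row all 3 peaks reach 2.42 to 4.57 with 90% βTC6 cells.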

How the data were processed

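RNA-seq and ATAC-seq of αTC1 and βTC6 cells were taken from the processed tables. The authors trimmed RNA-seq reads with Trim Galore 0.40 and aligned them to mm9 with Bowtie 2, and RSEM 1.2.12 made the deposited expected counts and FPKM values on Ensembl transcripts, without use of strand. The authors trimmed ATAC-seq reads with Trimmomatic 0.32, mapped them with BWA and dropped duplicates (Picard 1.95), found peaks in each library (MACS2 2.1.0), merged them into a consensus set (DiffBind 2.2.5) and deposited the signal per peak as TMM-normalized read counts, annotated with HOMER 4.6. Of these values 100% were whole multiples of the value of 1 read (tolerance 0.01), so reads could be recovered, and 1 read is the lowest value held.

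Expected counts were rounded and tested with edgeR 4.0.16 (glmQLFit and glmQLFTest, TMM, R 4.3.3) over genes that reached 1 FPKM in every library of either line, spike-ins left out of library sizes. A gene's standard error is the size of its log2 fold change over the square root of edgeR's F. Peaks were tested with limma 3.58.1 (trend) on log2(normalized read count + 1). P-values were Benjamini-Hochberg adjusted over all features, with an FDR of 5% and a log2 fold change of 2 as thresholds. The floor of detection was 3 counts, and depths and floors cover counting error only. Self-tests on simulated data preceded each fit. Permutations, counts and figures used Python 3.11.15, scipy 1.17.1 and matplotlib 3.10.9, and gene features came from GENCODE vM1 on mm9. Alternatives covered DESeq2 1.42.0, normalizations (spike-ins and 1 RUVg factor included), filters, pseudocounts, a replicate block, processing groups and each library left out.

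All 10 genes are named. In each list of further genes up to 4 that differed with the largest change are named, and Orai3, Fkbp1a, Pln, Tmco1, Calu, Tmem38a and Atp2b2 were named after their values were seen. For peaks, the one nearest each start site and up to 3 past both thresholds per gene and direction (by t) are named, or the largest t where none passed. The members, lists and rules were chosen with earlier results of these data known. The authors' columns of differential and signature peaks were not used.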

Additional observations from a re-analysis of the deposited data

Results flagged for a closer look

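Over the 21 peaks named, each of the 42 groups of 5 libraries was examined for a library far from the rest by Dixon's 95% criterion, and 5 met it. Chance flags about 1 in 20 groups. βTC6 replicate 5 was farthest at 3 peaks. At the intronic Ryr2 peak chr13:11972530-11973388 it had a normalized read count of 33.24, against 22.4 in the next highest library. At the Ryr2 promoter peak it had 44.6, against 36.92. At the Atp2a2 promoter peak it had 26.67, against 35.69 in the next lowest library. It was also the deepest ATAC-seq library, with 10374903 reads in peaks. Without it, the intronic Ryr2 peak kept a log2 fold change of 2.709.

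βTC6 replicate 2, the shallowest ATAC-seq library with 4397851 reads in peaks, was farthest at the other 2 peaks. At the intronic Itpr3 peak chr17:27208628-27208926 it had 2.461, against 0.6757 in the next highest library, and without it the log2 fold change was -1.911. At the Ryr3 peak chr2:112678662-112679269 it had 4.307, against 7.1 in the next lowest library, and without it the log2 fold change was 2.189. The part of depth in these values was not tested.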

How the results depend on the processing

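Of the 121 alternative values of the counts, 108 stayed within 1.5 times the value reported. The 7 store genes that passed the expression filter and 21 of the 62 peaks had 474 alternative log2 fold changes. Of these, 446 kept their direction and their side of the threshold. Where one did not, the cause was not tested. Features not past both thresholds in the main fit were judged by the FDR alone, so their rises past the fold threshold were not counted. The intronic Itpr3 peak rose so with a pseudocount of 0.5 (-2.04), quantile normalization (-2.08) and edgeR (-2.50). It also did in replicates 4 and 5 (-2.14). With edgeR the Ryr1 peak (-2.39) and the Ryr3 peak at chr2:112895627 (3.19) did too, the latter also with a pseudocount of 0.5 (2.28). The further genes were recomputed with spike-in scaling alone, as counts. With spike-in scaling, 1 of the 10 genes was higher in αTC1 (Ryr2) and 3 were higher in βTC6, and the further genes gave 21 and 1. Atp2a2 was below a log2 fold change of 2 there (1.965), with limma on FPKM (1.981 with a pseudocount of 1, 1.99 with 0.1) and without βTC6 replicate 3 (1.911). On log2(FPKM + 1), 1 gene was past both thresholds (Atp2a3), and Itpr3 fell to 1.37. Peaks past both thresholds numbered 11 toward βTC6 with a pseudocount of 0.5, 1 with a pseudocount of 5, 11 with edgeR on recovered reads and 3 among peaks with a mean of at least 5, where 16 and 12 peaks differed toward βTC6 and αTC1. Toward αTC1 they numbered 4 with quantile normalization, 4 with edgeR on recovered reads and 4 in replicates 4 and 5. Among log2 fold changes that had not passed, the Ryr2 promoter peak turned to -0.028 in replicates 1 to 3 and the Atp2a2 promoter peak to 0.157 with quantile normalization. Promoter peaks came past the FDR with quantile normalization (Ryr2, 0.421; Stim2, 0.625), in replicates 1 to 3 (Stim2, 0.184) and without αTC1 replicate 5 (Atp2a2, -0.282).

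Leaving out each library gave 4 genes higher in βTC6 and 3 in αTC1 each time, 2 to 3 past both thresholds, 30 to 32 peaks opening toward βTC6, 14 to 20 toward αTC1, and 6 to 9 and 2 to 2 past both thresholds. Replicate numbers were not treated as pairs in the main fits. The correlations of same-numbered deviations were -0.0358 to 0.0207 in RNA-seq and -0.0019 to 0.069 in ATAC-seq. Those of different-numbered ones were -0.0413 to 0.0522 and -0.0597 to 0.0269. All are small, but they cannot exclude that libraries of the same number were prepared together. With a replicate block the genes stayed at 4 and 3, and the peaks past both thresholds at 7 and 2, and 31 peaks opened toward βTC6. Depth limits the low peaks and genes: Ryr1, Ryr3 and the αTC1 side of Atp2a3 rest on few counts.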
